A study of Homo sapiens with 12 samples.

Results

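The 37 genes described here encode NRF2 (NFE2L2), its inhibitor KEAP1, and enzymes and transporters of glutathione, thioredoxin, quinone, iron and NADPH metabolism. They were chosen by name as redox and NRF2 pathway genes from the 58174 gene IDs of the deposited table. This choice, and that of the further pathway genes below, was made with earlier results of these data known. Shares of these lists beside all genes are therefore descriptive. All 37 passed the filter on low counts that left 20612 genes. H520 (NCI-H520), a long-established cell line from a human squamous carcinoma of the lung, was sequenced at the RNA level after 72 h in 4 groups of 3 libraries: BLU9931 at 1 µM with palbociclib at 1 µM (the combination), palbociclib alone at 1 µM, BLU9931 alone at 1 µM, and control cells. BLU9931 is an irreversible inhibitor of the fibroblast growth factor receptor FGFR4, and palbociclib inhibits the cell-cycle kinases CDK4 and CDK6. All groups are the same single cell line. No label gives the vehicle of the controls or the cultures behind each library, so p-values measure the spread between these libraries, which may be technical.

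NRF2 is a transcription factor that KEAP1 holds in the cytoplasm and marks for degradation. When oxidants or electrophiles modify KEAP1, NRF2 accumulates, pairs with small MAF proteins and binds antioxidant response elements, raising enzymes that make glutathione, reduce quinones and carbonyls, regenerate thioredoxin and supply NADPH. The pathway is well known in squamous lung carcinoma, where mutations of NFE2L2 or KEAP1 often keep it active. NRF2 is controlled largely through the stability of its protein, which RNA counts do not measure.

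The libraries held 21.7 M to 35.8 M counts, and expression is reported in CPM, which corrects counts for depth with TMM factors, or, between genes, in TPM, which is also scaled by gene length. Control replicate 1 and palbociclib replicate 3 stood apart: across all genes, a gene's deviation from its group followed the GC content of its transcript, with Spearman's rho of -0.67 and -0.74, against -0.25 to 0.60 in the other 10 libraries. Over the 37 genes, rho was -0.82 in control 1 and -0.80 in palbociclib 3, so GC-rich OSGIN1, GPX1, GPX4 and GSTP1 were low there and AT-rich GCLM and ME1 were high. Counts of changed genes are therefore given with and without these 2 libraries. Of 8 squamous markers, 1 (SOX2) reached 1 TPM in control cells, while TP63, KRT5, KRT14, KRT17 and DSG3 were at or near 0; 5 of 6 neuroendocrine markers reached 1 TPM, and their summed level was 710 to 730 TPM with the combination, 555 to 616 TPM with palbociclib, 386 to 419 TPM with BLU9931 and 312 to 331 TPM in control cells. CHGB alone made up 662 to 691 TPM of this sum with the combination and 269 to 291 TPM in control cells. The other members did not move together: NCAM1 had a median of 6.16 TPM with the combination, 8.01 TPM with palbociclib, 23.4 TPM with BLU9931 and 22.0 TPM in control cells, and SYP 2.39, 1.29, 2.06 and 3.16 TPM in the same order, while the median of INSM1 was highest with the combination. The part of these genes in the results was not tested. In bulk RNA, fewer cells of a type and less RNA per cell cannot be told apart.

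**Figure D1:**
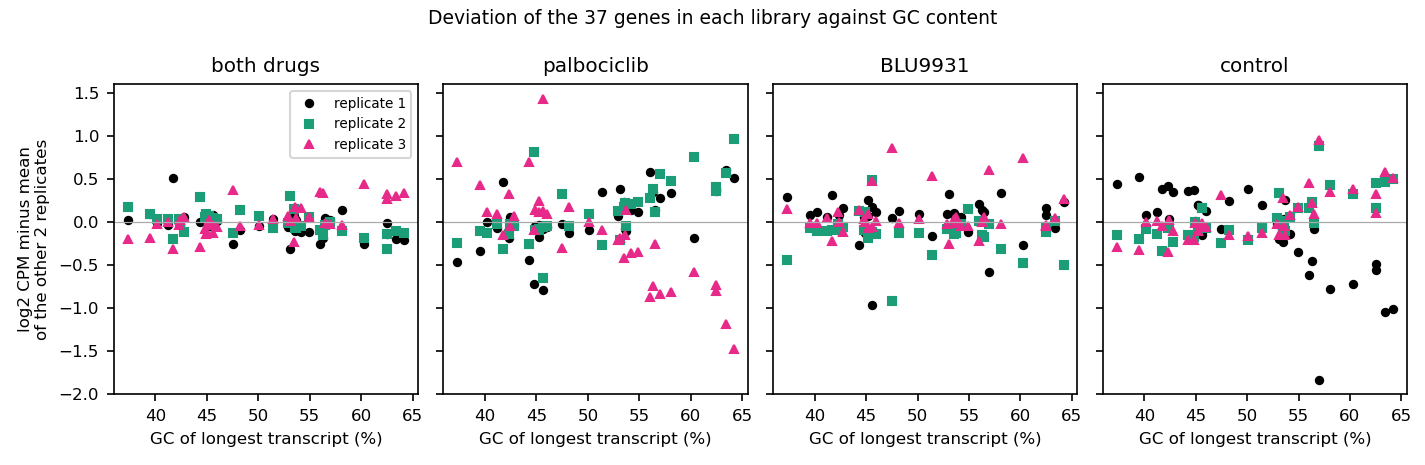
Difference between each library's log2 CPM and the mean of the other 2 replicates (y axis) for the 37 genes, against the GC percent of the longest transcript (x axis), in 1 panel for each group. In control 1 (black circles) and palbociclib 3 (pink triangles) the points slope down with GC content.

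In control cells the 37 genes spanned a wide range of TPM. PRDX1, a peroxiredoxin that reduces hydrogen peroxide, was highest at 2383 ± 188 TPM (SD, n = 3), followed by the ferritin heavy chain FTH1 at 1865 ± 323 TPM; the lowest PRDX1 library (2246 TPM) was just above the highest FTH1 library (2237 TPM). The ferritin light chain FTL averaged 774 ± 136 TPM and AKR1C3 707 ± 53.0 TPM. The means of SOD1 (554 ± 122 TPM), GSTP1 (539 ± 123 TPM) and PGD (507 ± 9.71 TPM) were closer together than the SD of SOD1 or of GSTP1. At the low end were HMOX1 at 6.39 ± 1.20 TPM and the aldo-keto reductase AKR1B10 at 0.515 ± 0.0807 TPM. Together the 37 genes took 1.06% to 1.10% of counts in the combination libraries, 0.795% to 0.881% with palbociclib, 0.842% to 0.932% with BLU9931 and 0.891% to 0.913% in control libraries. The combination libraries were above every other library in this share.

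The redox genes that changed with the combination mainly rose. Against control, 11 of 37 rose and 2 fell (35.1% called at an adjusted p under 0.05 in edgeR's quasi-likelihood test), beside 31.7% of all genes tested, 15.4% higher and 16.3% lower. The overall share was thus near the background, while the median log2 change of the 37 genes was 0.13 and that of all genes 0.03. NQO1, CAT, GSTM3, AKR1C1, AKR1B10, AKR1C3, OSGIN1, HMOX1, TALDO1, SRXN1 and FTL rose, and MGST1 and GSR fell. Without control 1 and palbociclib 3, 17 of the 37 passed, beside 38.8% of all genes, and with an offset for GC content 17, beside 43.3%.

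Palbociclib alone gave a mixed picture. Against control, CAT, GSTM3, NQO1 and AKR1B10 rose and AKR1C1, AKR1C2, FTH1, TXNRD1, GSR and GCLC fell, which makes 27.0% of the 37 genes beside 20.6% of all genes (10.0% higher, 10.5% lower). Their median log2 change was -0.03, against 0.01 over all genes. The count was 16 without control 1 and palbociclib 3, beside 28.6% of all genes, 17 without palbociclib 3 alone, beside 26.7%, and 17 with the GC offset, beside 35.2%. In these 3 settings the combination against control called 17, 14 and 17, so its larger count in the fit of all libraries (13 against 10) was not kept in each of them.

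With BLU9931 alone, 0 of the 37 genes passed in edgeR, beside 0.180% of all genes (0.141% higher, 0.0388% lower), and 9 had an unadjusted p under 0.05, beside 16.2% of all genes. DESeq2 called 2, beside 2.64% of all genes, edgeR with a GC offset 4, beside 3.77% (317 of all genes higher and 460 lower), and edgeR without control 1 and palbociclib 3 called 1 (GPX3), beside 2.62% of all genes. The smallest adjusted p-values in edgeR were those of GPX3 (log2 change -1.63 ± 0.42 (SE), adjusted p = 0.143), GCLM (-0.74 ± 0.21, 0.179), GSTM3 (0.41 ± 0.12, 0.179) and AKR1B10 (-1.10 ± 0.33, 0.192). The median over the 37 genes was -0.10, against 0.00 over all genes.

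**Figure D2:**
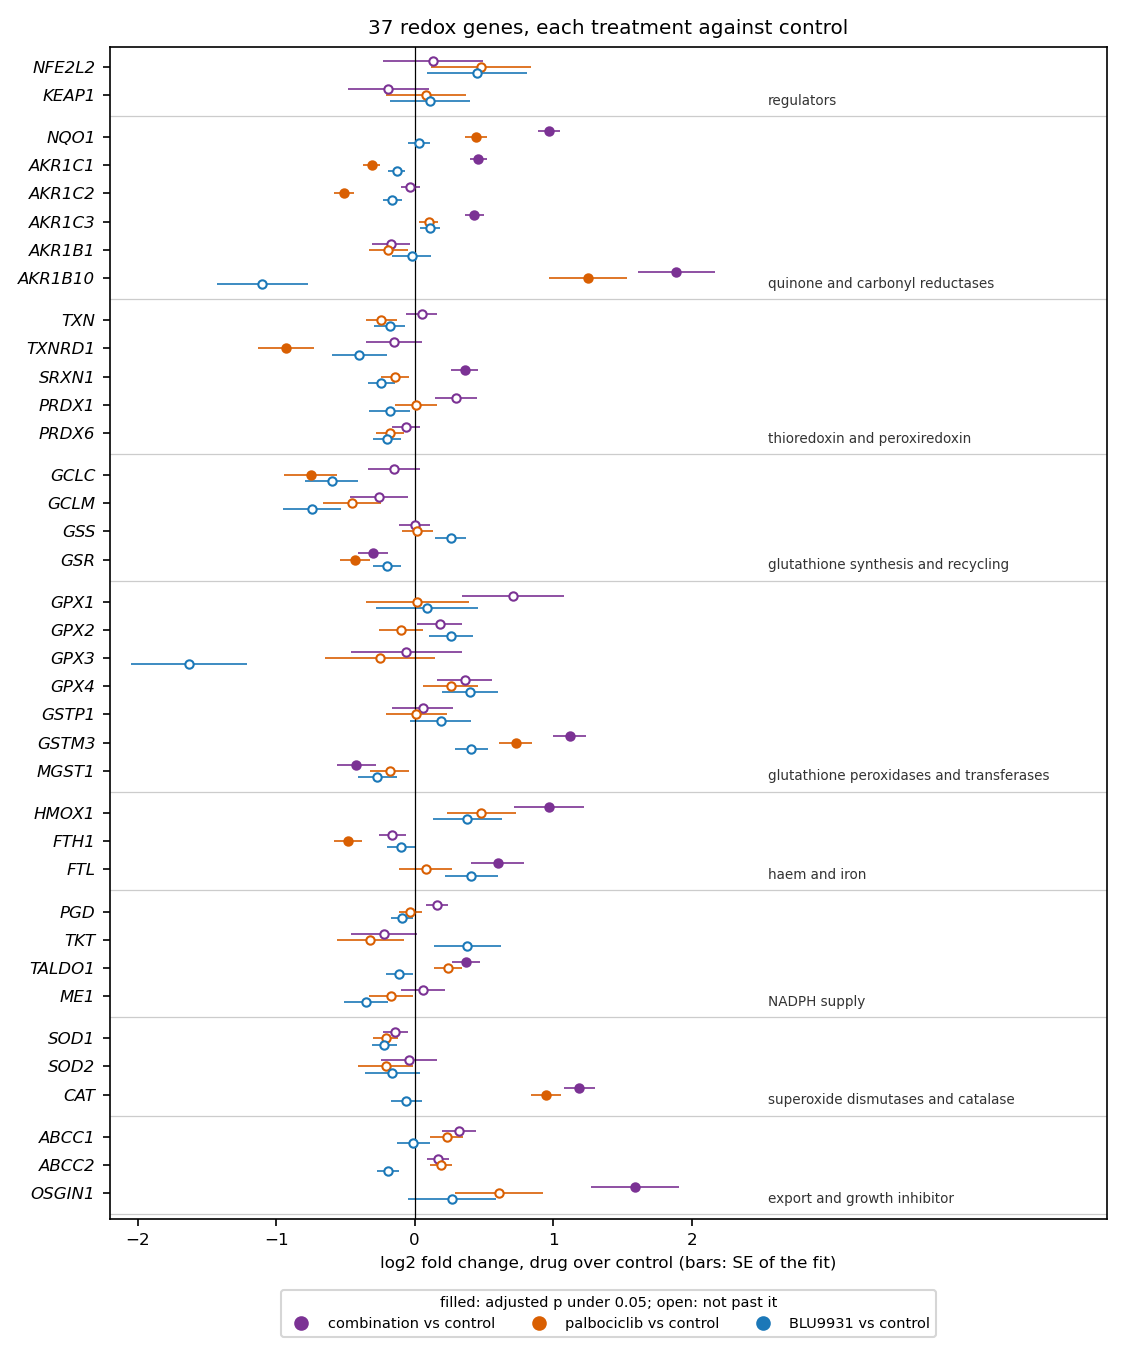
Log2 fold change over control (x axis, bars are SE of the fit) of the 37 genes (y axis, grouped by role) for the combination, palbociclib and BLU9931, with filled points where the adjusted p was under 0.05. NQO1, CAT, GSTM3 and AKR1B10 are filled and right of 0 for both the combination and palbociclib, while GCLC and TXNRD1 lie left of 0 for each single drug and nearer 0 for the combination.

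Adding BLU9931 to palbociclib raised a small group of reductases. In the combination against palbociclib alone, AKR1C1, AKR1C2, AKR1C3, NQO1 and SRXN1 rose and 0 of the 37 fell. That is 13.5% of the 37 genes, beside 3.82% of all genes, of which 0.917% were higher and 2.91% lower. The coding sequences of AKR1C1, AKR1C2 and AKR1C3 are 91.3% to 98% identical, so these genes may not be separate results. No share was computed with their counts summed. The median log2 difference was 0.23 over the 37 genes and 0.00 over all genes. With a GC offset 15 passed, while all genes split into 1282 higher and 1237 lower (12.2%). Without control 1 and palbociclib 3, 11 passed, beside 9.69% of all genes, and without palbociclib 1, or combination 2 or 3, 3 passed, beside 2.86%, 2.08% and 2.13%.

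The combination against BLU9931 alone raised 13 of the 37 genes and lowered 0 (35.1%, beside 27.0% of all genes, 13.3% higher and 13.7% lower). CAT (log2 difference 1.25 ± 0.11 (SE), edgeR adjusted p = 9.08e-06), NQO1 (0.94 ± 0.08, 6.39e-06), AKR1B10 (2.99 ± 0.31, 3.22e-05) and AKR1C1 (0.59 ± 0.06, 4.27e-05) had the smallest adjusted p-values. GSTM3, SRXN1, TALDO1, ABCC2, AKR1C3, OSGIN1, GPX3, PGD and PRDX1 made up the rest, with log2 differences between 0.26 and 1.57; GPX3 was lost without BLU9931 1 (0.071) or BLU9931 2 (0.0625). Without control 1 and palbociclib 3, 21 passed, beside 41.2% of all genes, without palbociclib 3 alone 20, beside 32.1%, and with the GC offset 21, beside 41.0%. These counts include falls of TKT and GSS in each setting. In the same order, the log2 differences were -0.62, -0.63 and -0.58 for TKT and -0.28, -0.28 and -0.24 for GSS.

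The interaction tests whether the log2 effect of BLU9931 in palbociclib-treated cells differed from its effect in cells without palbociclib. It was positive and past the threshold for AKR1C1, AKR1C2, SRXN1 and NQO1, and negative past it for 0 of the 37. This makes 10.8% of the 37 genes, beside 1.59% of all genes, of which 0.281% were positive and 1.31% negative. The share counts AKR1C1 and AKR1C2 singly, although the split of reads between them is uncertain and they are not separate results. A further 13 genes, among them GCLC, TXNRD1, GCLM, GPX3 and AKR1B10, had a positive interaction with an unadjusted p under 0.05, which brings the number to 17 of 37, beside 14.2% of all genes. The median interaction was 0.30 over the 37 genes and -0.02 over all genes. With a GC offset 15 passed, while all genes split into 1055 positive and 890 negative (9.44%). Without control 1 and palbociclib 3, 12 passed, beside 10.0% of all genes, and leaving out any 1 of control 2 or 3, BLU9931 1, 2 or 3, palbociclib 1 or combination 1, 2 or 3 left 2, beside 0.694% to 1.01%.

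**Figure D3:**
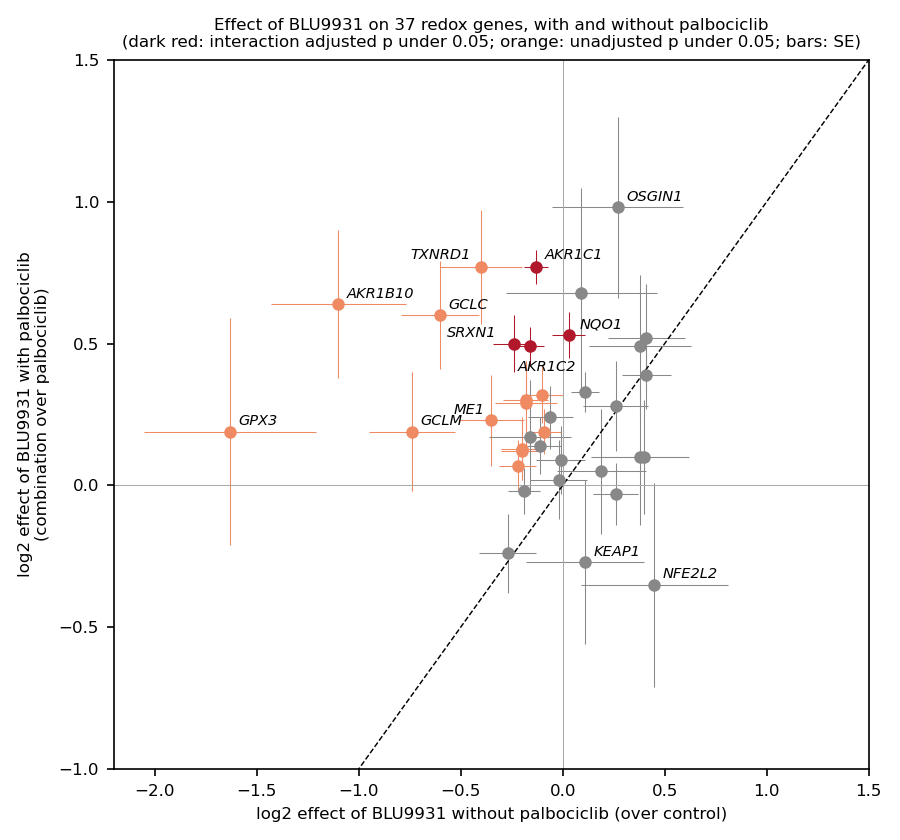
Log2 effect of BLU9931 in the presence of palbociclib (y axis, combination over palbociclib) against its effect without palbociclib (x axis, BLU9931 over control) for the 37 genes, with SE bars and the line of equal effects (dashed); the axes share no libraries. AKR1C1, AKR1C2, SRXN1 and NQO1 (dark red) lie above the line by 0.90, 0.64, 0.74 and 0.50, and GCLC, TXNRD1, GPX3 and AKR1B10 (orange) lie above it with wider bars.

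Among the regulators, neither NFE2L2 nor KEAP1 passed in any comparison or under any alternative setting. NFE2L2 had 40.5, 41.4 and 40.0 CPM with the combination, 32.0, 34.1 and 89.5 CPM with palbociclib, 30.9, 60.7 and 60.2 CPM with BLU9931 and 34.5, 40.0 and 36.9 CPM in control cells. The high palbociclib value was in replicate 3, and without that library the log2 change with palbociclib was -0.16 in place of 0.48. KEAP1 had 49.2, 50.7 and 67.7 CPM with the combination, 60.0, 92.6 and 49.9 CPM with palbociclib, 59.1, 53.4 and 94.1 CPM with BLU9931 and 44.7, 72.5 and 74.6 CPM in control cells, so all groups overlapped. The span of NFE2L2 in the table overlaps AGPS on the other strand, which held 178% of the NFE2L2 count, and whether the counting used strand is not given in the sources used here.

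Of the 6 quinone and carbonyl reductases, 4 were higher with the combination than with palbociclib (NQO1, AKR1C1, AKR1C2 and AKR1C3). NQO1, which reduces quinones with NAD(P)H, had 572, 577 and 553 CPM with the combination, 384, 385 and 412 CPM with palbociclib, 313, 278 and 299 CPM with BLU9931 and 308, 281 and 283 CPM in control cells. The combination libraries were highest and the palbociclib libraries next, with no overlap, while BLU9931 and control overlapped. NQO1 rose by a log2 change of 0.97 ± 0.08 (SE) with the combination (edgeR adjusted p = 4.08e-06) and 0.44 ± 0.08 with palbociclib (0.00225), and was 0.53 ± 0.08 higher with the combination than with palbociclib (0.00251). These calls held under all 24 alternatives. The interaction of 0.50 ± 0.11 (adjusted p = 0.0475) held in 5 of 23 alternatives and was lost without each of 11 libraries, at adjusted p-values of 0.0838 to 0.133, all but palbociclib 3.

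AKR1C1 and AKR1C2 are neighbouring aldo-keto reductases of chromosome 10 that reduce steroid ketones and reactive carbonyls, and AKR1C3, in the same cluster, also reduces prostaglandins. The coding sequences of AKR1C1 and AKR1C2 are identical at 953 of 972 bases (98.0%), so the split of reads between them is uncertain. AKR1C1 had 1202, 1219.6 and 1233 CPM with the combination, 734, 706 and 699 CPM with palbociclib, 842, 775 and 811 CPM with BLU9931 and 898, 860.2 and 894 CPM in control cells. In CPM the groups did not overlap, and palbociclib alone was lowest while the combination was highest. In TPM, AKR1C1 with BLU9931 (339 ± 30.8 TPM, SD) overlapped control (338 ± 26.1 TPM). AKR1C1 fell by 0.31 (log2, SE 0.06) with palbociclib (edgeR adjusted p = 0.00531; 0.0965 to 0.0984 from TPM or FPKM) and rose by 0.46 ± 0.06 with the combination (0.000225). The combination exceeded palbociclib by 0.77 ± 0.06 (4.48e-05), and the interaction was 0.90 ± 0.09 (0.000413), past the threshold in all 23 alternatives at 0.64 to 0.92.

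AKR1C2 had 696, 711 and 691 CPM with the combination, 500.4, 471 and 527 CPM with palbociclib, 676, 608 and 635 CPM with BLU9931 and 741, 688 and 712 CPM in control cells. The palbociclib libraries were lowest without overlap, and the combination libraries overlapped control. Its log2 change with palbociclib was -0.51 ± 0.07 (edgeR adjusted p = 0.000623) and with the combination -0.03 ± 0.07 (0.794), and its interaction was 0.64 ± 0.10 (0.00926), with adjusted p-values of 0.147 to 0.150 from TPM or FPKM. With the counts of AKR1C1 and AKR1C2 summed, which does not depend on how reads were split between them, the level was 1897, 1930.4 and 1925 CPM with the combination, 1234, 1177 and 1225 CPM with palbociclib, 1518, 1383 and 1446 CPM with BLU9931 and 1640, 1548 and 1607 CPM in control cells. The sum kept the order, with a fall of 0.40 (log2) with palbociclib (adjusted p = 0.00106), a rise of 0.26 with the combination (0.00714) and an interaction of 0.80 ± 0.09 (0.000786). Reads may also be shared with AKR1C3. With its counts added to the sum, the log2 change was -0.28 with palbociclib (edgeR adjusted p = 0.00795) and 0.3 with the combination (0.00302). The interaction of this larger sum was 0.66 ± 0.09 (0.00264).

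AKR1C3 had 584, 602 and 591 CPM with the combination, 454, 465 and 490.4 CPM with palbociclib, 488, 451 and 484 CPM with BLU9931 and 465, 413 and 442 CPM in control cells. The combination was highest without overlap (log2 change 0.43 ± 0.07 over control, edgeR adjusted p = 0.00106), and its excess over palbociclib (0.33 ± 0.07, 0.0277) held in 12 of 24 alternatives and was lost without BLU9931 1 or 3, palbociclib 1 or 2 or any 1 combination library (0.0542 to 0.107). AKR1B10, a related reductase of retinal and aliphatic aldehydes, was scarce at 1.54, 1.63 and 2.06 CPM with the combination, 1.11, 1.30 and 0.969 CPM with palbociclib, 0.212, 0.136 and 0.309 CPM with BLU9931 and 0.446, 0.415 and 0.538 CPM in control cells. It rose with the combination (1.89 ± 0.28, 0.00034) and with palbociclib (1.25 ± 0.28, 0.00855), and the BLU9931 libraries were lowest. AKR1B1, aldose reductase, did not pass in any comparison, with log2 differences between -0.19 and 0.02 outside the interaction.

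**Figure D4:**
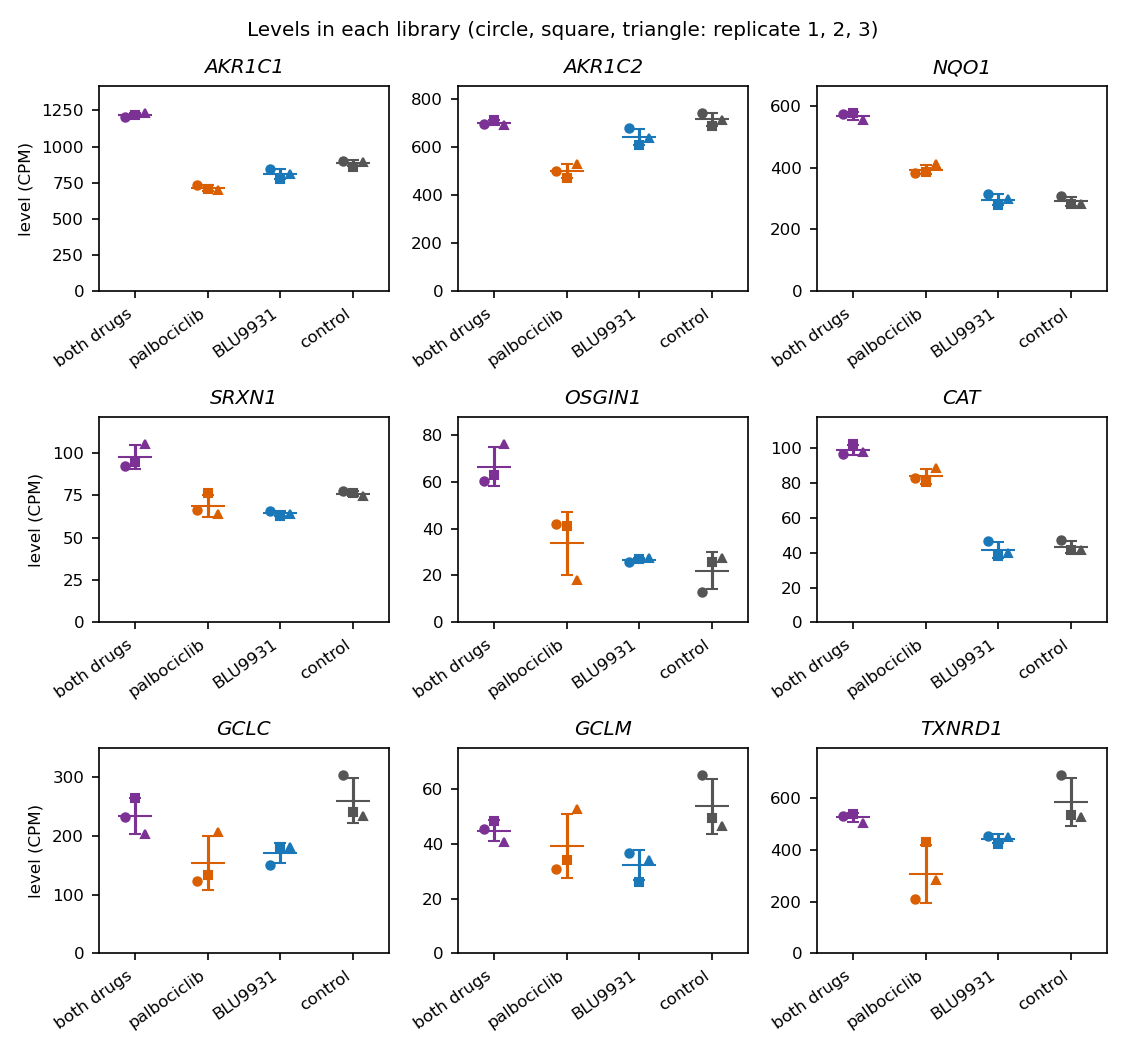
CPM in each library (y axis, from 0) of AKR1C1, AKR1C2, NQO1, SRXN1, OSGIN1, CAT, GCLC, GCLM and TXNRD1 with both drugs, palbociclib, BLU9931 and no drug (x axis), with horizontal bars for means and vertical bars for SD of 3 libraries. AKR1C1 is highest with both drugs (1218 CPM on average) and lowest with palbociclib (713 CPM), and CAT is high in both groups with palbociclib.

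In the thioredoxin and peroxiredoxin group, SRXN1, which repairs over-oxidised peroxiredoxins, had 92.4, 94.3 and 105 CPM with the combination, 66.2, 76.1 and 64.0 CPM with palbociclib, 65.9, 63.0 and 63.9 CPM with BLU9931 and 77.2, 76.4 and 74.3 CPM in control cells. The combination was above every other group, and the BLU9931 libraries lay below control. SRXN1 rose by 0.36 ± 0.10 (log2) with the combination over control (edgeR adjusted p = 0.0174) and by 0.50 ± 0.10 over palbociclib (0.0161). The first of these calls was lost without control 2 or 3 or combination 3 (0.0558 to 0.106) and the second without palbociclib 1 or combination 2 or 3 (0.0555 to 0.0901). Its interaction of 0.74 ± 0.14 (0.0248) held in 12 of 23 alternatives, with adjusted p-values of 0.062 to 0.0944 without any 1 of 9 libraries. TXNRD1, the reductase that recycles thioredoxin, had 531, 539 and 506 CPM with the combination, 210.4, 429 and 282 CPM with palbociclib, 455, 424 and 451 CPM with BLU9931 and 690.2, 536 and 528 CPM in control cells. The single-drug groups lay below control without overlap, and the combination overlapped it. The log2 change was -0.93 ± 0.20 with palbociclib (0.00811; 0.0892 without control 1 and palbociclib 3), -0.40 ± 0.20 with BLU9931 (0.347) and -0.15 ± 0.20 with the combination (0.602). Its interaction, 1.17 ± 0.29, did not pass (0.0759). PRDX1 passed only in the combination against BLU9931 (0.48 ± 0.15, 0.0329), with 1639, 1563 and 1635 CPM against 1056, 953 and 1455 CPM. That call was lost in 10 of 24 alternatives, among them those without BLU9931 1 (0.142), BLU9931 2 (0.151), any 1 combination library (0.0783 to 0.101) or control 2 or 3 (0.0551 and 0.0532). TXN itself and PRDX6 did not pass in any comparison.

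In glutathione synthesis, GCLC and GCLM form the catalytic and modifier subunits of glutamate-cysteine ligase, the rate-limiting enzyme. GCLC, TXNRD1, PRDX1 and GPX3 were singled out for values in every library after these were seen. GCLC had 232, 266 and 203 CPM with the combination, 123, 134 and 207 CPM with palbociclib, 150.4, 181 and 181 CPM with BLU9931 and 304, 241 and 235 CPM in control cells. Both single drugs lay below control in every library, and the combination overlapped control. GCLC changed by -0.75 ± 0.19 (log2) with palbociclib (edgeR adjusted p = 0.0178), a call lost without control 1 (0.0584), palbociclib 1 (0.0512) or palbociclib 2 (0.0559), by -0.60 ± 0.19 with BLU9931 (0.204) and by -0.15 ± 0.19 with the combination (0.583). Its interaction was 1.20 ± 0.27 (0.0563), and 1.34 without control 1 and palbociclib 3 (0.00105). GCLM averaged 44.9 ± 3.88 CPM with the combination, 39.3 ± 11.8 CPM with palbociclib, 32.3 ± 5.51 CPM with BLU9931 and 53.8 ± 10.1 CPM in control cells (SD, n = 3 each), and passed in no comparison. GSS, the enzyme of the next step, did not pass either in the fit of all libraries. GSR, which regenerates reduced glutathione, fell with palbociclib (-0.43 ± 0.11, 0.0135) and with the combination (-0.30 ± 0.11, 0.0486). On TPM or FPKM its change with palbociclib was -0.25 to -0.23 (0.449 to 0.476) and with the combination 0.01 to 0.03 (0.919 to 0.967). The combination call was lost in 12 of 24 alternatives, among them those without control 1 (0.112), control 2 (0.053), BLU9931 3 (0.0598), combination 1 (0.116) or combination 3 (0.0999).

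Among the glutathione peroxidases and transferases, GSTM3 had 20.8, 20.4 and 18.9 CPM with the combination, 14.8, 14.9 and 16.3 CPM with palbociclib, 13.3, 11.6 and 11.9 CPM with BLU9931 and 8.74, 9.96 and 9.05 CPM in control cells. The 4 groups did not overlap, in that order. GSTM3, a transferase that joins glutathione to electrophiles, rose by 1.12 ± 0.12 (log2) with the combination (edgeR adjusted p = 3.35e-05) and by 0.73 ± 0.12 with palbociclib (0.0014). MGST1, a microsomal transferase, had 63.6, 64.8 and 62.8 CPM with the combination, 68.4, 69.9 and 86.7 CPM with palbociclib, 67.7, 69.7 and 74.4 CPM with BLU9931 and 102, 81.9 and 71.7 CPM in control cells. The combination libraries were lowest without overlap. MGST1 fell with the combination by 0.42 (log2), at an adjusted p of 0.038 that became 0.106 without control 1, and between 0.0513 and 0.082 without control 2 or without any 1 combination library. GPX3, a secreted peroxidase, had 25.4, 25.0 and 24.8 CPM with the combination, 24.1, 27.5 and 14.3 CPM with palbociclib, 6.28, 8.14 and 10.9 CPM with BLU9931 and 9.59, 33.8 and 34.9 CPM in control cells. Control 1 lay within the BLU9931 range and the other 2 control libraries far above it, and without control 1 the log2 change with BLU9931 passed (adjusted p = 0.0233). GPX1, GPX2, GPX4 and GSTP1 passed in no comparison.

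Of the haem and iron genes, HMOX1, haem oxygenase 1, had 12.6, 11.2 and 11.6 CPM with the combination, 9.48, 10.1 and 5.57 CPM with palbociclib, 9.03, 6.68 and 7.65 CPM with BLU9931 and 4.05, 7.09 and 6.82 CPM in control cells. The combination was highest without overlap, with a log2 change over control of 0.97 ± 0.25 (edgeR adjusted p = 0.0123). FTL had 516, 523 and 658 CPM with the combination, 451, 457 and 272 CPM with palbociclib, 529, 462 and 495 CPM with BLU9931 and 299, 409.6 and 409 CPM in control cells. The combination lay above control and overlapped BLU9931. The rise of FTL with the combination over control, 0.60 ± 0.19 (0.0328), had adjusted p-values of 0.058 to 0.148 without any 1 control or combination library. It was also lost without any 1 BLU9931 library (0.0531 to 0.0579), and held in 13 of 24 alternatives. FTH1 fell with palbociclib alone (-0.48 ± 0.10, 0.00655) and did not pass with the combination (-0.16 ± 0.10, 0.25).

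CAT, catalase, which breaks down hydrogen peroxide in peroxisomes, had 96.9, 103 and 97.8 CPM with the combination, 82.7, 80.6 and 88.9 CPM with palbociclib, 46.6, 38.2 and 40.1 CPM with BLU9931 and 47.3, 41.4 and 41.3 CPM in control cells. Every library with palbociclib was above every library without it. CAT rose by 1.19 ± 0.11 (log2) with the combination (edgeR adjusted p = 1.05e-05) and by 0.95 ± 0.11 with palbociclib (0.00015), and its interaction was 0.30 ± 0.15 (0.416). The superoxide dismutases SOD1 and SOD2 passed in no comparison; the span of SOD2 overlaps WTAP and ACAT2 on the other strand.

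Of the genes of the pentose phosphate pathway and NADPH supply, TALDO1, the transaldolase of that pathway, had 169.6, 163 and 164 CPM with the combination, 159.9, 159 and 133 CPM with palbociclib, 125, 109 and 122 CPM with BLU9931 and 123, 127 and 133 CPM in control cells. The combination was highest without overlap. TALDO1 rose with it over control by 0.37 ± 0.10 (log2, edgeR adjusted p = 0.0125; 0.0573 without combination 1 and 0.111 with a GC offset). PGD, which makes NADPH in the same pathway, passed only in the combination against BLU9931 (0.26 ± 0.08, 0.0324). That call held in 8 of 24 alternatives and was lost without any 1 library other than palbociclib 3, at adjusted p-values of 0.0512 to 0.177. TKT and ME1 passed in no comparison in the fit of all libraries. Of the exporters, ABCC2 passed against BLU9931 alone (0.36 ± 0.08, 0.00724; 0.0535 without BLU9931 1) and ABCC1 in no comparison. OSGIN1, an oxidative-stress-induced growth inhibitor, had 60.4, 63.0 and 76.2 CPM with the combination, 41.8, 41.1 and 18.2 CPM with palbociclib, 25.8, 26.9 and 27.3 CPM with BLU9931 and 12.9, 25.9 and 27.4 CPM in control cells. The combination was highest without overlap (log2 change 1.59 ± 0.32, adjusted p = 0.00292; 1.30 without control 1 and palbociclib 3, the libraries in which this GC-rich gene was lowest).

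The promoters of the 4 genes with a called interaction were searched for antioxidant response element letters, beside those of OSGIN1, GCLM and TXNRD1, which hold a match. Windows of 300 bases, from 250 before to 50 after the start, were available for 28 of the 37 genes (40 windows; RefSeq, GRCh38.p14). The core TGACNNNGC, on either strand, was in 9 of 40 windows (22.5%), from PGD, GCLM, ME1, GSTP1, MGST1, TXNRD1, GPX2 and KEAP1, against 13.3% of all 35116 windows. The related form TGAGTCAGC, on either strand, was in the OSGIN1 window and in 0.461% of all windows; the 2 forms can share letters, and no window of the 37 genes held both. Neither form was in the windows of AKR1C1, AKR1C2, NQO1 or SRXN1, which says only that these letters are not in these windows. Matches are in capitals below, and each sequence runs 5′ to 3′ on the gene's strand. AKR1C1 (chr10:4963165-4963464, plus strand) and AKR1C2 (chr10:5003808-5004107, minus strand) are shown because their windows are near copies, identical at 288 of 296 aligned columns (97.3%).
AKR1C1: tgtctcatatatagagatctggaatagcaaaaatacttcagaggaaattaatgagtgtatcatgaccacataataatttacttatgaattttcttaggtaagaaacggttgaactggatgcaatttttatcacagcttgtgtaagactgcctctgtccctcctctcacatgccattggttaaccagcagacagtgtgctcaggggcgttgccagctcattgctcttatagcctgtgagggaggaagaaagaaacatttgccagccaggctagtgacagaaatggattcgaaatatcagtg
AKR1C2: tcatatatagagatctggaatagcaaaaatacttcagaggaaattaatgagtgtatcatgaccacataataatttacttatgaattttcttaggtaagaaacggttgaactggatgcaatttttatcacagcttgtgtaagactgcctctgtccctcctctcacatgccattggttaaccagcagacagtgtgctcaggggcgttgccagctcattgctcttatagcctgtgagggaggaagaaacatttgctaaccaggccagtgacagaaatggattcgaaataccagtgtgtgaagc
NQO1 (chr16:69726511-69726810, minus strand) and SRXN1 (chr20:653151-653450, minus strand) are the other 2 genes with a called interaction.
NQO1: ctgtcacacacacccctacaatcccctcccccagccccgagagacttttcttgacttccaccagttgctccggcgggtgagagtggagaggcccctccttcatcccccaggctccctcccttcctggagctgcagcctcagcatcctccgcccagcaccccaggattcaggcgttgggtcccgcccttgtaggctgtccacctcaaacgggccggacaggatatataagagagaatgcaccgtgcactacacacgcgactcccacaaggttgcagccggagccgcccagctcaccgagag
SRXN1: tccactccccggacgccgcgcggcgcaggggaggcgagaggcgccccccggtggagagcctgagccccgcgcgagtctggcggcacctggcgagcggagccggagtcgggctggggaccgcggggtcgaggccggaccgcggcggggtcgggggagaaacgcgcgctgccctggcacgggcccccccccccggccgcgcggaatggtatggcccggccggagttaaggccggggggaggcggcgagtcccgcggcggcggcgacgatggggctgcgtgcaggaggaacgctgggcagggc
OSGIN1 (chr16:83952990-83953289, plus strand) rose with the combination, while GCLM (chr1:93909381-93909680, minus strand) and TXNRD1 (chr12:104286782-104287081, plus strand, the second of its windows) did not pass with it.
OSGIN1: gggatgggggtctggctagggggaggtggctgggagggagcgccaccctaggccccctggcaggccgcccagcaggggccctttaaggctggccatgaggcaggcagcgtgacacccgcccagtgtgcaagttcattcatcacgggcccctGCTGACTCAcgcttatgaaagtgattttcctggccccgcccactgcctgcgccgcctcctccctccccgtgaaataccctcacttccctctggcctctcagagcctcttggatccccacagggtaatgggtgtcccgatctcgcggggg
GCLM: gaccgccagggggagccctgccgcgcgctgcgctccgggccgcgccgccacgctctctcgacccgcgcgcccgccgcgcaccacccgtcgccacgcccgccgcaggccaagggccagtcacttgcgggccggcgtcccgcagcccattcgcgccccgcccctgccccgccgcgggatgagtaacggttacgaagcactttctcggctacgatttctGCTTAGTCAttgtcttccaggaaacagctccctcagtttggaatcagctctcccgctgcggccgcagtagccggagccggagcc
TXNRD1: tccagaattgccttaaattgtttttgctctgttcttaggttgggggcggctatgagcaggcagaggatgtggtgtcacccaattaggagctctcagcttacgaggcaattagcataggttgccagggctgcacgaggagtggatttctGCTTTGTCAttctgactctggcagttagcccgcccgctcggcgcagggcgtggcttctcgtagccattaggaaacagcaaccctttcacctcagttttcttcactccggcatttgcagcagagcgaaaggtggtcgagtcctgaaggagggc

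Other genes of the pathway moved in both directions. Of 76 further redox and NRF2 pathway genes, 73 were tested (not SOD3, GPX8 and FTMT). With the combination against control, 23 rose and 11 fell (46.6%, against 31.7% of all genes). The smallest adjusted p-values among rises were those of the exporter ABCC5 (log2 change 1.22 ± 0.08 (SE), edgeR adjusted p = 1.04e-06), the aldehyde dehydrogenases ALDH1A1 (2.08 ± 0.16, 2.74e-06) and ALDH3A1 (2.59 ± 0.23, 9.96e-06), and the transferase GSTA4 (1.23 ± 0.11, 1.02e-05). ALDH3A1 averaged 1275 CPM with the combination and 211 CPM in control cells. Among falls they were those of mitochondrial isocitrate dehydrogenase IDH2 (-1.27 ± 0.13, 3.4e-05), the glutathione-degrading CHAC2 (-1.41 ± 0.20, 0.000287), the peroxiredoxin PRDX4 (-1.06 ± 0.16, 0.000546) and GGCT (-0.98 ± 0.16, 0.000689). Palbociclib alone raised 16, led by ABCC5, GSTA4 and TXNIP, and lowered 12, led by CHAC2, GLRX5 and PRDX4 (38.4%, against 20.6% of all genes). Against palbociclib, the combination raised ALDH3A1 (1.03 ± 0.22, 0.025) and ALDH1A1 (0.63 ± 0.15, 0.046) and lowered IDH2 (-0.72 ± 0.13, 0.0108). That is 4.11% of the 73, near the 3.82% of all genes. Against BLU9931 it raised 22, led by ABCC5, ALDH1A1 and TXNIP, and lowered 9, led by IDH2, GGCT and MAFF (42.5%, against 27.0% of all genes). With BLU9931 alone CHAC1, another glutathione-degrading enzyme, rose (2.25 ± 0.33, 0.0256), a call lost without any 1 BLU9931 or control library. It was the only 1 of the 73 called there (1.37%, beside 0.180% of all genes). Without palbociclib 2 the number called with palbociclib was 18, beside 14.0% of all genes, and without BLU9931 1 or combination 1 the number in the combination against BLU9931 was 19 or 18, beside 19.3% and 19.6%. In the interaction 0 of the 73 passed in edgeR, beside 1.59% of all genes. An unadjusted p under 0.05 was found for 11 of the 73, beside 14.2% of all genes. DESeq2 called 4 in the interaction (beside 3.97% of all genes), edgeR with a GC offset 15 (9.44%), and edgeR without control 1 and palbociclib 3 called 12 (10.0%), or 7 without palbociclib 3 alone (4.52%).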

How the data were processed

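RNA of 12 H520 libraries (3 in each of 4 groups, set by the sample titles) was analysed from 1 deposited table. Its columns are labelled, per the file headers, as counts per gene, TPM (per length, to a fixed total) and FPKM, all computed by the authors in a way the headers leave unsaid. Per the submitters' processing notes, HISAT2 2.0, StringTie 1.3.3b, Trimmomatic 0.36 and bedtools 2.26.0 were used, with a mouse build; of 58174 human gene IDs, 56007 have the same start and end in GENCODE 29, so positions are on GRCh38. Use of strand is not given in the sources used here. Counts (21.7 M to 35.8 M per library) were filtered with filterByExpr, scaled by TMM and fitted in R 4.3.3 with edgeR 4.0.16 (quasi-likelihood, 12 libraries, 8 residual degrees of freedom), two-sided, with Benjamini-Hochberg adjustment over 20612 genes and a threshold of 0.05. In all, 6 comparisons were made. The steps were tested on simulated data. Alternatives were library totals, DESeq2 1.42.0, no filter, limma 3.58.1 on log2(TPM + 1), log2(TPM + 0.1) and log2(FPKM + 1), single libraries left out, a replicate block and a GC offset (5-df spline); summed AKR1C counts were added after seeing the data. Values in every library are given for NFE2L2, KEAP1, the AKR1C genes, the 12 genes with the smallest adjusted p in combination against control, and genes past the threshold in the interaction. The members and lists were chosen with earlier results of these data known.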

Additional observations from a re-analysis of the deposited data

Results flagged for a closer look

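For 4 genes the effect of BLU9931 with palbociclib differed from its effect without it, by edgeR's interaction test. The difference (log2) was 0.90 for AKR1C1 (adjusted p = 0.000413), where BLU9931 changed the level by 0.77 with palbociclib and by -0.13 without it. It was 0.64 for AKR1C2 (0.00926), from 0.49 with palbociclib and -0.16 without it. For SRXN1 it was 0.74 (0.0248), from 0.50 with palbociclib and -0.24 without it, and for NQO1 0.50 (0.0475), from 0.53 with palbociclib and 0.03 without it. All 3 combination libraries were above all 3 palbociclib libraries for AKR1C1, AKR1C2, SRXN1 and NQO1. With AKR1C1 and AKR1C2 counts summed, the difference was 0.80 (0.000786), and with AKR1C3 added to the sum it was 0.66 (0.00264). The split of reads between these 2 genes is uncertain, so they are not separate results. Of 23 alternatives, the interaction call held in 23 for AKR1C1, 19 for AKR1C2, 12 for SRXN1 and only 5 for NQO1.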

How the results depend on the processing

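Single genes were followed in comparisons where the edgeR fit of all libraries gave an unadjusted p under 0.05, and NFE2L2 and KEAP1 in every comparison. These results kept their direction and side of the threshold, called or not, in 2125 cases, gained a call in 121, lost one in 137 and reversed in 17. Reversals named below are from these results only. With control 1 and palbociclib 3 both left out, the numbers of the 37 genes called were 1 (BLU9931 against control), 16 (palbociclib against control), 11 (combination against palbociclib), 21 (combination against BLU9931) and 12 (interaction), and of the 73 further genes 9 for BLU9931 and 7 for combination against palbociclib; of all genes 2.62%, 28.6%, 9.69%, 41.2% and 10.0% passed. With the GC offset they were 4, 17, 15, 21 and 15 of the 37, and 7 and 13 of the 73, in the same order, beside 3.77%, 35.2%, 12.2%, 41.0% and 9.44% of all genes (0.180%, 20.6%, 3.82%, 27.0% and 1.59% in the reported fit). With DESeq2 they were 2 for BLU9931, 8 for combination against palbociclib and 7 for the interaction, beside 2.64%, 6.36% and 3.97% of all genes, and 5 and 5 of the 73. Without the filter 3 passed in combination against palbociclib (1.67% of all genes). With limma on log2(TPM + 1) or log2(TPM + 0.1), 3 passed there (3.18% and 3.01% of all genes) and 2 in the interaction (1.13% and 1.16%). With FPKM 2 passed in the interaction (1.17%), and 2 of the 73 with BLU9931 (0.262%). Library totals gave 2 of the 73 with BLU9931 (0.233% of all genes), and moved the median of all genes from 0.03 to 0.11 in combination against control. Fitting only the groups compared gave 5 for palbociclib, 3 for combination against palbociclib and 22 for combination against BLU9931 (9.48%, 1.54% and 41.8% of all genes), and 15 and 0 of the 73 for palbociclib and for combination against palbociclib. The cause of these differences was not tested.

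Leaving out 1 library at a time, the numbers of the 37 genes called were 0 to 2 (BLU9931), 9 to 17 (palbociclib), 9 to 14 (combination against control), 3 to 6 (against palbociclib), 9 to 20 (against BLU9931) and 2 to 6 (interaction), and of the 73 they were 0 to 6, 18 to 33, 27 to 39, 0 to 4 and 18 to 34 for the first 5. Deviations of same-numbered libraries from their group means correlated at -0.364 to 0.168. The GC trend of control 1 and palbociclib 3 enters these deviations, so they cannot settle whether libraries of the same number belong together. A replicate block gave 3 for combination against palbociclib and 2 for the interaction (2.34% and 0.689% of all genes), and 1 of the 73 in the first of these. The replicate block with GC offset gave 1 (BLU9931), 13 (combination against palbociclib), 21 (combination against BLU9931) and 10 (interaction), beside 1.73%, 9.68%, 38.7% and 6.76% of all genes, and of the 73 3 for BLU9931 and 9 for combination against palbociclib.

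Uncalled changes that turned were those of KEAP1 with BLU9931 (-0.10 without control 1, -0.17 without BLU9931 3, -0.09 without control 1 and palbociclib 3, -0.18 with the GC offset, -0.21 with block and GC offset) and with palbociclib (-0.12 without control 1, -0.24 without palbociclib 2, -0.07 with the GC offset, -0.08 with block and GC offset), of KEAP1 in combination against palbociclib (0.03 without palbociclib 2), and of NFE2L2 with palbociclib (-0.16 without palbociclib 3, -0.24 without both libraries) and in combination against palbociclib (0.27 and 0.30 in the same order). Over single libraries left out, the highest or lowest values of these were 0.71 for NFE2L2 and 0.26 for KEAP1 with palbociclib, and -0.59 for NFE2L2 and -0.48 for KEAP1 in combination against palbociclib. The called fall of GSR with the combination turned to 0.01 and 0.01 on TPM (pseudocounts 1 and 0.1) and 0.03 on FPKM. With 3 libraries a group, low genes such as AKR1B10 (under 3 CPM) rest on few counts.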
